A study of Homo sapiens with 6 samples.

Results

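The genes of the proteasome, the protease that degrades ubiquitin-tagged proteins, were examined in MCF10CA1a cells grown on a soft or a stiff gel. They were taken as every gene symbol that begins with PSMA to PSMG followed by a digit, and 54 of the 26484 symbols in the tables met this rule. Of these, 48 are plain symbols of subunits, regulators and assembly factors. The other 6 carry a suffix and encode no subunit: the antisense RNAs PSMA3-AS1, PSMB8-AS1, PSMD5-AS1, PSMD6-AS2 and PSMG3-AS1, and PSMC3IP, a protein of meiotic recombination.

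MCF10CA1a is a malignant line derived from the MCF10A breast epithelial lineage. Both groups were the same untreated line in the same serum-containing medium on Matrigel-coated dishes, and differed by the gel, of 500 Pa or 8000 Pa. RNA, labelled as cytosolic, was taken on day 5 after seeding from 3 biological replicates per stiffness and sequenced, giving 6 libraries. A single cancer line on coated gels is the model here, so nothing below extends to other lines.

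Proteins tagged with ubiquitin chains are unfolded and threaded into the proteasome by its regulatory cap, whose base holds a ring of ATPases, and are cut inside the barrel of the core particle, which is built from rings of alpha and beta subunits. Most of its genes are expressed in nearly all cells, and they can be raised together by the transcription factor NRF1 (gene NFE2L1) when proteasome activity falls short. Interferon instead raises the immunoproteasome, in which PSMB8, PSMB9 and PSMB10 replace the catalytic subunits PSMB5, PSMB6 and PSMB7 and alter the peptides made for antigen presentation.

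Total counts ran from 8305601 to 18779742 per library. The epithelial genes EPCAM, CDH1 and KRT8 were abundant, at 138 CPM (read counts scaled to a common library size by TMM) or more in every library. The leukocyte genes PTPRC and CD3E and the fibroblast gene COL1A2 had 0 counts in all 6. Other markers of those types were not at 0: CD14 measured 7.32 to 20.2 CPM and COL1A1 0.503 to 3.80 CPM. The summed level of the 4 endothelial markers was 92.7 to 149 CPM at 500 Pa and 208 to 252 CPM at 8000 Pa, nearly all of it PECAM1; the part of this in any result below was not tested. The first principal component of all tested genes carried 49.1% of the variance and followed transcript GC content (absolute Spearman rho of its loadings with GC 0.787 across genes). It placed 8000 Pa replicate 1 at one end, at -62.3, and 500 Pa replicate 3 and 8000 Pa replicate 3 at the other, at 47.8 and 35.4.

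Promoter stretches are shown for 4 members that the results turn on: PSMB10, PSME1 and PSMD8, which had the lowest or nearly the lowest fold changes, and PSMD1, which had the highest among the subunits. Each is the 250 bases before the RefSeq start on GRCh38.p14, and capitals mark a match to 1 of the 3 motifs searched. They lie at chr16:67936851-67937100 on the minus strand for PSMB10, and on the plus strand at chr14:24135944-24136193 for PSME1, chr19:38374321-38374570 for PSMD8 and chr2:231056617-231056866 for PSMD1.
PSMB10: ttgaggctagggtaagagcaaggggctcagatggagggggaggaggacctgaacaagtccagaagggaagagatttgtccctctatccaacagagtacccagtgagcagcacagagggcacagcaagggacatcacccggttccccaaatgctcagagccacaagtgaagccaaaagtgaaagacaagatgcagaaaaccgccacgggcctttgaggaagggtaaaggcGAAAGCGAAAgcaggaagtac
PSME1: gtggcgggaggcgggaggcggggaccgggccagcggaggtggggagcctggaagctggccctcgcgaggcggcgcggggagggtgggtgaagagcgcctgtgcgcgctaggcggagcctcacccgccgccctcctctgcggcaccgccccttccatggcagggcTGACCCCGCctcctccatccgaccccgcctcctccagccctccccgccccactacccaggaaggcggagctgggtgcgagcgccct
PSMD8: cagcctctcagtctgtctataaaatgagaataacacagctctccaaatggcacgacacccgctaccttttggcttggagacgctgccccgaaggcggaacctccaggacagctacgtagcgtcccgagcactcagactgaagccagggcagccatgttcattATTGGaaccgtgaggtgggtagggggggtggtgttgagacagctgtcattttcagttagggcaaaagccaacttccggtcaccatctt
PSMD1: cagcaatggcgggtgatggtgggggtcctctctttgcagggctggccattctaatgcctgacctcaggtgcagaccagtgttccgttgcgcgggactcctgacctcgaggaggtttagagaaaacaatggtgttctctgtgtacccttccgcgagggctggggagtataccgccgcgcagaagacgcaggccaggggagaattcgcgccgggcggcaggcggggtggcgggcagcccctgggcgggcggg
In PSMB10 the capitals are an interferon-stimulated response element core, which begins 21 bases before the start. In PSME1 they are an antioxidant response element core, the motif bound by NRF1 and its relative NRF2, 86 bases before the start. In PSMD8 they are a CCAAT box read on the other strand, 88 bases before the start, and the PSMD1 stretch holds none of the motifs. The stretch of PSMC4, whose log2 fold change of -0.48 equalled that of PSMD8 after rounding, is not shown. It also holds none of the motifs. The 4 were picked by fold change, so they do not relate motif to direction.

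The motifs were searched on both strands of the promoters of the 42 plain members that RefSeq's table held. The antioxidant response element core, TGACNNNGC, occurred in 11 of 42 (26.2%), among them PSMD3, PSMD12, PSME1, PSME2 and PSMG1, against 11.0% of all 27305 promoters of that length. The CCAAT box, CCAAT, occurred in 18 of 42 (42.9%) against 33.0%. The interferon-stimulated response element core, searched as GAAA, any 2 bases and GAAA again, occurred in 5 of 42 (11.9%), namely PSMA4, PSMB4, PSMB10, PSME2 and PSMG4, against 3.07%. A match is a description of letters, and no binding was measured.

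Proteasome genes were abundant in both groups, and none of them changed past the threshold between the gels. In bulk RNA, fewer cells expressing a gene and less of its RNA per cell cannot be told apart. Of the 54 members, 49 had enough counts to be tested. The remaining 5 were PSMA8 and PSMB11, subunits of the testis and the thymus, PSMB8-AS1, PSMD6-AS2 and PSMB9. PSMA8, PSMB11 and PSMB8-AS1 had 0 counts in all libraries, where 3 counts would be 0.160 to 0.361 CPM, and PSMD6-AS2 had 1 count. PSMB9 had 83 counts over the 6 libraries.

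With all members summed, proteasome genes took 1.23%, 1.19% and 1.17% of all counts at 500 Pa and 1.30%, 1.18% and 1.19% at 8000 Pa. The groups overlapped, with means of 1.20% ± 0.0306 and 1.22% ± 0.0666 (SD, n = 3 each). The summed TMM-scaled level was 12881, 11335 and 13845 CPM at 500 Pa and 10790.4, 11313 and 12789 CPM at 8000 Pa, also with overlap. The library that was highest by share, 8000 Pa replicate 1, was the lowest by summed TMM-scaled level, because the scaling factors differ between libraries.

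**Figure D1:**
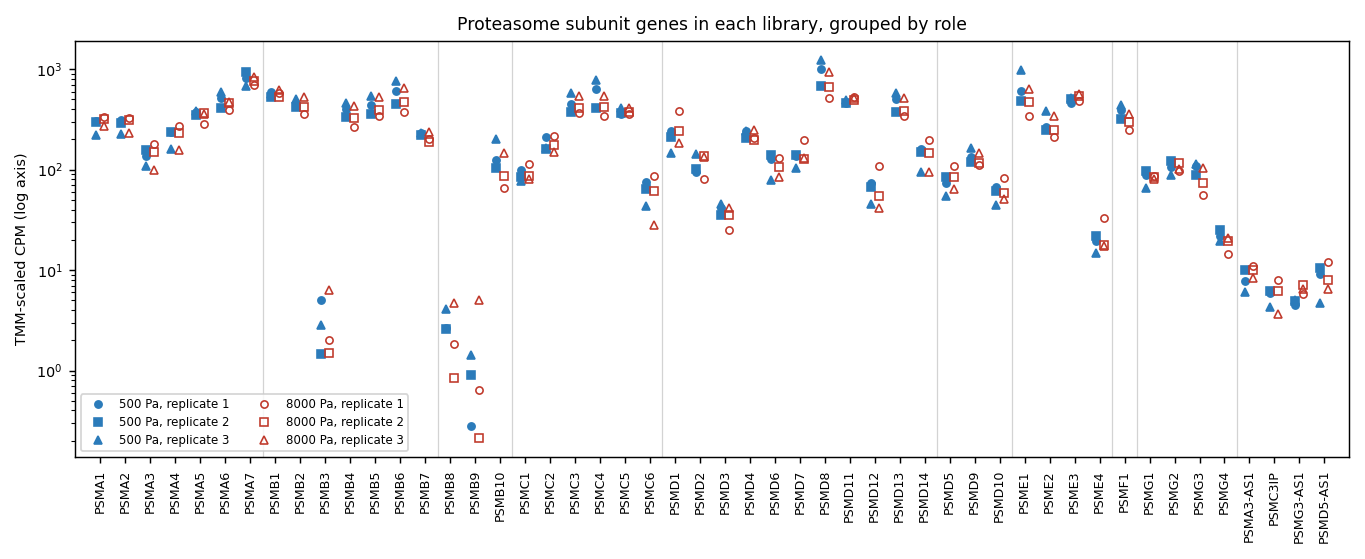
TMM-scaled CPM (log axis) of the 49 tested members and PSMB9, with members along the horizontal axis grouped by role and separated by vertical lines. Filled blue symbols are the 3 libraries at 500 Pa and open red symbols the 3 at 8000 Pa, with the shape giving the replicate number. The colours overlap for every subunit, and PSMB3, PSMB8 and PSMB9 sit far below the other core genes.

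The test of stiffness, edgeR's quasi-likelihood F test with Benjamini-Hochberg adjustment, called 0 of the 49 tested members, and it called 0.00% of the 11517 genes tested. At an unadjusted p under 0.05 it also found 0 members, against 2.45% of all genes. With the replicate number as a block, 0 members were called against 0.530% of all genes (61), and 4 members had an unadjusted p under 0.05, against 10.6% of all genes. DESeq2 called 0 members, against 0.0608% of all genes (7) without the block and 0.365% (42) with it.

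The members' fold changes, as log2 of 8000 Pa over 500 Pa, were centred near 0, with a median of -0.02 against 0.01 for all tested genes. They numbered 24 above zero and 25 below. They ran from -0.54 for PSMB10 to 0.43 for PSMD1, and the middle 50% lay between -0.19 and 0.10. The median size of the change, regardless of sign, was 0.13 on the log2 scale for the members and 0.24 for all genes. Among genes of at least 20 CPM on average it was 0.13 for 43 members and 0.21 for all 5276 such genes.

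The intervals show which changes these libraries could still hold. For 37 of the 49 members (75.5%), the 95% interval of the fold change lay within 2-fold in either direction, which was so for 40.8% of all tested genes. Among genes of at least 20 CPM on average the shares were closer, at 83.7% of the 43 members and 66.5% of all such genes. No member's estimate passed 2-fold, which 2.11% of all tested genes did, and 0.379% of those of at least 20 CPM. The median half-width of the interval was 0.60 on the log2 scale. An estimate smaller than about that would leave 0 inside the interval of a typical member. A larger change need not be detectable either, as the test called 0 of all genes although 243 estimates reached 2-fold.

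**Figure D2:**
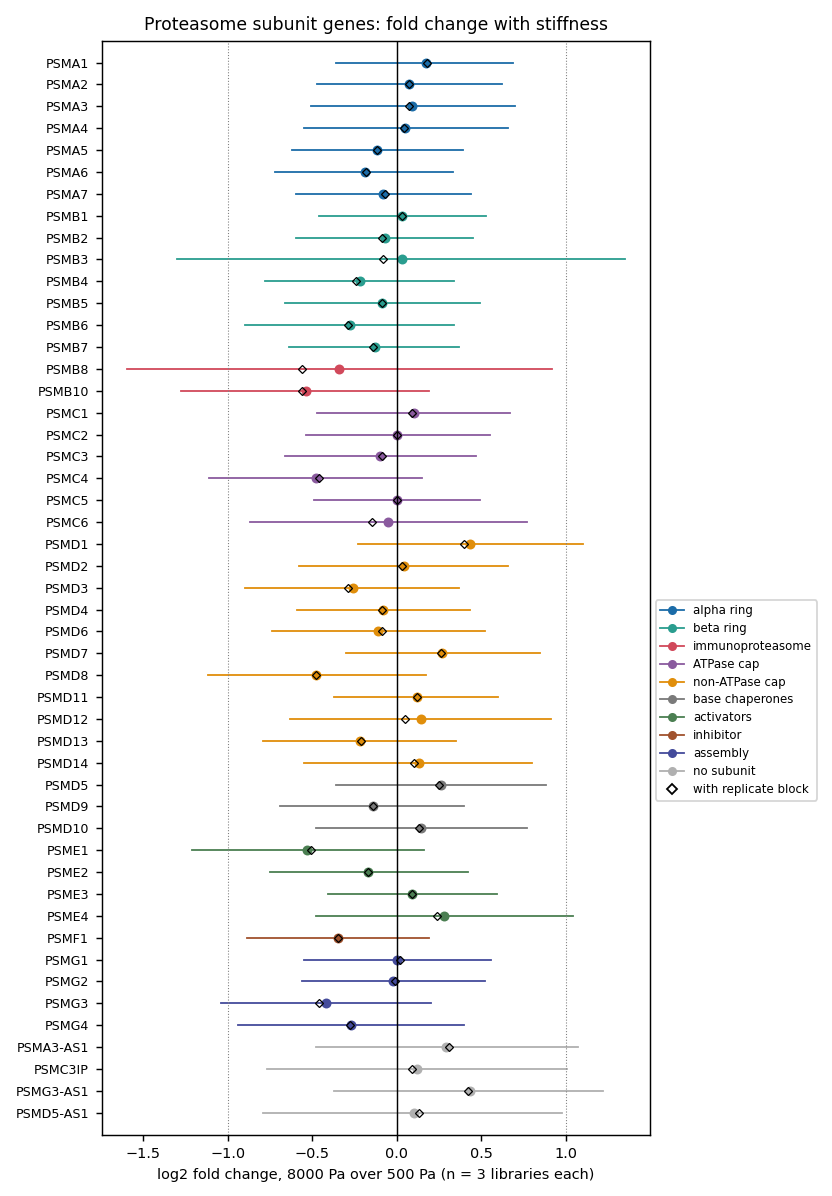
Log2 fold change of 8000 Pa over 500 Pa for each of the 49 tested members, coloured by role, as filled points with their 95% intervals from edgeR's quasi-likelihood fit on 3 libraries per group. Open diamonds give the fit with the replicate block. Points run from -0.54 to 0.43, all filled-point intervals include 0, the dotted lines mark 2-fold, and the widest intervals are those of PSMB3 and PSMB8.

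The alpha ring forms the gate of the core particle. The median log2 fold change of its 7 members was 0.05, 4 lay above zero and 3 below, in a range of -0.19 to 0.17. All 7 intervals lay within 2-fold. The highest level per kilobase of all members belonged to PSMA7, with a mean of 792 CPM per kilobase of transcript. In CPM it measured 816, 932 and 681 at 500 Pa and 696, 762 and 846 at 8000 Pa. The groups overlapped, at 809.5 ± 126 and 768 ± 75.3 CPM (SD, n = 3 each), with a log2 fold change of -0.08 (SE 0.24, 95% interval -0.60 to 0.44).

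The beta ring carries the cutting sites, and its 7 constitutive members had log2 fold changes with a median of -0.09. Of these, 2 were above zero and 5 below, in a range of -0.28 to 0.03. PSMB5, the chymotrypsin-like subunit, measured 445, 357 and 539 CPM at 500 Pa and 340.4, 395 and 528 CPM at 8000 Pa. Its groups overlapped almost fully, and the log2 fold change was -0.09 (SE 0.26). PSMB6, the caspase-like subunit, measured 601, 455 and 771 CPM at 500 Pa and 373, 475 and 653 CPM at 8000 Pa, with a log2 fold change of -0.28 (SE 0.29, 95% interval -0.90 to 0.34). Replicate 3 was its highest library in both groups. PSMB7, the trypsin-like subunit, measured 234, 219 and 232 CPM at 500 Pa and 201, 188 and 235 CPM at 8000 Pa. The 8000 Pa library of replicate 3 was above all 3 soft libraries, so the groups overlapped, and the log2 fold change was -0.13 (SE 0.23). Per kilobase, PSMB6 was the most abundant of the ring, at a mean of 651 CPM, followed by PSMB1 at 613 CPM, PSMB4 at 384 CPM and PSMB5 at 336 CPM. With the shortest coding transcript PSMB5 stood above PSMB4, at 483 CPM per kilobase.

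PSMB3, a structural subunit found in every core particle, stood apart from its ring. It measured 5.03, 1.45 and 2.86 CPM at 500 Pa and 2.00, 1.48 and 6.28 CPM at 8000 Pa, from 225 counts in all. Its mean per kilobase was 4.12 CPM, while the other 6 members of the ring lay between 166 and 651 CPM per kilobase. The log2 fold change was 0.03 with an interval of -1.30 to 1.35, so neither a doubling nor a halving would be detectable. Genes around PSMB3, at chr17:38752736-38764231 on GRCh38, also had few counts. None of its 6 nearest protein-coding genes reached 100 counts over the 6 libraries: CISD3 had 5, MLLT6 2, PIP4K2B 8, PCGF2 10, CWC25 10 and C17orf98 0. PSMB3 was the only member with 0 of 6. PSMD8, PSMD14 and PSMF1 had 1 of 6 and were themselves abundant. Which genes the neighbours are was not taken into account, and the part of the region was not tested. How the authors treated reads that fit several places, such as the alternate haplotype sequences of GRCh38, is not given in the sources used here, and the part of this in the low counts was not tested.

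**Figure D3:**
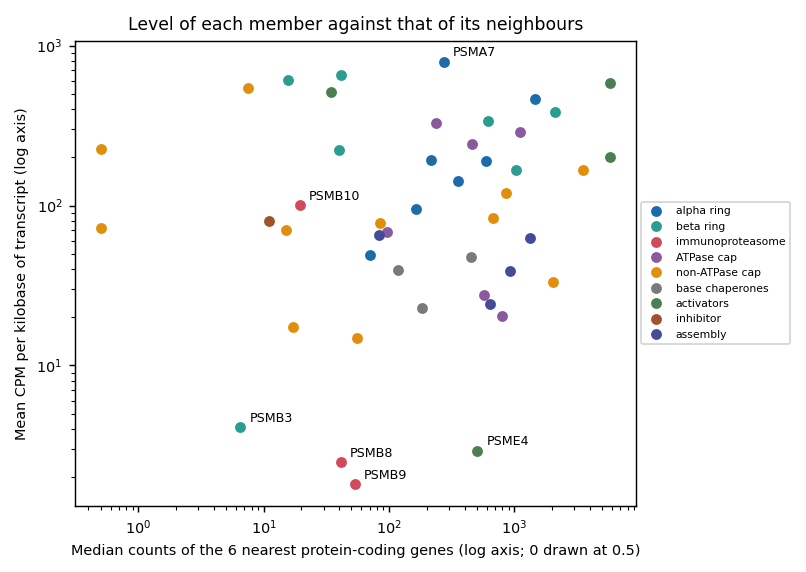
Mean level of each plain member with counts, in CPM per kilobase of transcript (log axis), against the median counts over 6 libraries of its 6 nearest protein-coding genes (log axis, with 0 drawn at 0.5), coloured by role. PSMB3, PSMB8, PSMB9 and PSME4 lie at the bottom, between 1.80 and 4.12 CPM per kilobase. Some members with as low a median, such as PSMD13 and PSMD14, lie among the abundant ones. Which genes the neighbours are was not taken into account.

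The immunoproteasome subunits were present at very different levels. PSMB10, which replaces PSMB7, was well expressed, at 126, 104 and 204 CPM at 500 Pa and 65.9, 87.1 and 145 CPM at 8000 Pa. The groups overlapped, since 8000 Pa replicate 3 was above 2 of the soft libraries, but the stiff library was the lower in each same-numbered pair, by 0.93, 0.25 and 0.50 on the log2 scale. Its log2 fold change of -0.54 (SE 0.34, 95% interval -1.28 to 0.19) was the lowest of all members and did not pass edgeR's quasi-likelihood test (adjusted p = 1.00 with Benjamini-Hochberg). With the block it was -0.56 (SE 0.23, edgeR unadjusted p = 0.0149, Benjamini-Hochberg adjusted p = 0.319). The unblocked value moved with single libraries, to -0.17 when 500 Pa replicate 3 was left out and to -0.91 when 8000 Pa replicate 3 was. With the GC offset it was -0.31, above PSME1 at -0.54 and PSMF1 at -0.47. PSMB10 also had the highest transcript GC content of the members, 60.1%.

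PSMB8, which replaces PSMB5, measured 2.68, 2.57 and 4.14 CPM at 500 Pa and 1.84, 0.845 and 4.69 CPM at 8000 Pa. These rest on 178 counts in all, and the log2 fold change of -0.34 had an interval of -1.60 to 0.92. PSMB9, which replaces PSMB6, had 5, 8 and 10 counts at 500 Pa and 8, 2 and 50 counts at 8000 Pa. Its highest library, 8000 Pa replicate 3 with 4.98 CPM, held most of its counts, and its other libraries lay between 0.211 and 1.43 CPM. Both genes are in the class II region of the major histocompatibility complex, at chr6:32840717-32844703 and chr6:32844136-32859585 on GRCh38, and their annotated spans overlap. Within 500 kb on either side, 18.8% of the genes around PSMB8 and 21.9% of those around PSMB9 reached 100 counts, against a median of 56.0% over 44 members with at least 5 neighbours, and 30.0% for PSMB3. As for PSMB3, which genes these neighbours are was not taken into account. They include the class II genes HLA-DOB, HLA-DQB2 and HLA-DMB. This region too has alternate haplotype sequences in GRCh38, and their part was not tested.

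Ratios between subunits that exchange for each other, or sit side by side, were computed per library. Per kilobase, PSMB10 over PSMB7 was 0.433, 0.381 and 0.709 at 500 Pa and 0.264, 0.372 and 0.495 at 8000 Pa. The means were 0.508 ± 0.176 and 0.377 ± 0.115 (SD, n = 3 each), with overlap. PSMB8 over PSMB5 lay between 0.00246 and 0.0102 in all libraries. The constitutive ratio of PSMB5 over PSMB6 was 0.488, 0.517 and 0.461 at 500 Pa and 0.600, 0.547 and 0.533 at 8000 Pa. The groups do not overlap here, at means of 0.489 ± 0.0282 and 0.560 ± 0.0356 (SD, n = 3 each). The ratio was 1 of 4 computed and was not tested. That of PSME1 over PSME2, given below, did not overlap either. How often ratios of other gene pairs separate was not computed. The transcripts of PSMB5 and PSMB6 have 51.93% and 54.93% GC, and the part of this was not tested.

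The 6 ATPases of the cap base, PSMC1 to PSMC6, unfold the substrate. Their median log2 fold change was -0.03, with 3 above zero and 3 below. PSMC4 measured 629.5, 409 and 786 CPM at 500 Pa and 343, 420.1 and 546 CPM at 8000 Pa. The groups overlapped, with the replicate 2 libraries nearly equal, and the log2 fold change was -0.48 (SE 0.29, 95% interval -1.11 to 0.15). PSMC5 was the flattest, with 362, 365 and 415 CPM at 500 Pa and 362, 373 and 409 CPM at 8000 Pa, a log2 fold change of 0.00 (SE 0.23, 95% interval -0.49 to 0.49). PSMC6 measured 75.1, 64.8 and 43.4 CPM at 500 Pa and 87.2, 61.7 and 28.0 CPM at 8000 Pa, and replicate 3 was its lowest library in both groups.

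The 11 other cap subunits recognise, deubiquitinate and hold the substrate, and their median log2 fold change was 0.04, with 6 above zero and 5 below. PSMD1, the largest cap subunit and a scaffold of the base, measured 243, 210.4 and 146 CPM at 500 Pa and 382, 242 and 183 CPM at 8000 Pa. The stiff library was the higher in each pair, by 0.65, 0.20 and 0.33 on the log2 scale, while the groups overlapped. Its log2 fold change was 0.43 (SE 0.31, 95% interval -0.23 to 1.10), and the edgeR unadjusted p was 0.185, or 0.0847 with the block. It was 0.09 without 8000 Pa replicate 1 and 0.26 with the GC offset. PSMD8, a subunit of the lid, measured 1013, 688 and 1245 CPM at 500 Pa and 515, 659 and 942 CPM at 8000 Pa. Only the difference of replicate 2 was small, and the log2 fold change was -0.48 (SE 0.30, 95% interval -1.12 to 0.17), with an edgeR unadjusted p of 0.0496 and a Benjamini-Hochberg adjusted p of 0.469 with the block. PSMD11, a lid subunit, varied little, with 462, 457 and 496 CPM at 500 Pa and 528, 493 and 513 CPM at 8000 Pa, a log2 fold change of 0.12 (SE 0.23, 95% interval -0.37 to 0.60). PSMD14, the lid's deubiquitinase, had a log2 fold change of 0.13 (SE 0.31).

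PSMD5, PSMD9 and PSMD10 are chaperones that help build the cap base. Their log2 fold changes were 0.26, -0.14 and 0.14. PSMD9, the most abundant of them per kilobase, measured 133, 118 and 165 CPM at 500 Pa and 112, 117 and 147 CPM at 8000 Pa, with overlap.

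The activators open the core without the ATPase cap. PSME1 and PSME2 form the interferon-responsive PA28 ring, PSME3 forms a nuclear ring, and PSME4 encodes PA200. PSME1 measured 612, 486 and 987 CPM at 500 Pa and 339, 477 and 632 CPM at 8000 Pa. The groups overlapped, and the replicate 2 libraries were nearly equal. Its log2 fold change was -0.53 (SE 0.32, 95% interval -1.21 to 0.16), with an edgeR unadjusted p of 0.0339 and a Benjamini-Hochberg adjusted p of 0.421 with the block. PSME2, its partner, measured 267, 251 and 381 CPM at 500 Pa and 212, 250 and 340 CPM at 8000 Pa, with a log2 fold change of -0.17 (SE 0.27). The ratio of PSME1 over PSME2 per kilobase was 3.17 ± 0.452 at 500 Pa and 2.50 ± 0.232 at 8000 Pa (SD, n = 3 each), and all 3 stiff libraries were below the soft ones, the nearest being 2.67 and 2.71. This ratio was not tested either, and the 2 transcripts differ in GC content, at 52.19% and 57.55%. PSME3 and PSME4 had log2 fold changes of 0.09 and 0.28, with overlapping groups.

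PSMF1, an inhibitor of the core, measured 391, 319.9 and 437 CPM at 500 Pa and 249.7, 298 and 355 CPM at 8000 Pa. Its stiff library was the lower in each pair, but the groups overlapped, and the log2 fold change was -0.35 (SE 0.25, 95% interval -0.89 to 0.19).

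The PSMG genes encode chaperones that assemble the alpha ring. PSMG3 measured 109, 87.9 and 114 CPM at 500 Pa and 55.4, 73.7 and 104 CPM at 8000 Pa. The stiff library was the lower in each pair, most so in replicate 1, and the groups overlapped. Its log2 fold change was -0.42 (SE 0.29, 95% interval -1.04 to 0.20), with an edgeR unadjusted p of 0.0496 and a Benjamini-Hochberg adjusted p of 0.469 with the block. PSMG1, PSMG2 and PSMG4 had log2 fold changes of 0.00, -0.02 and -0.27.

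PSMB10, PSME1, PSMD8 and PSMG3 were thus the 4 members with an unadjusted p under 0.05 under the block, all lower at 8000 Pa. Among all tested genes, 6.12% met that rule in the lower direction.

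PSMG3-AS1, an antisense RNA, was the only member whose groups did not overlap. It measured 4.53, 4.92 and 5.00 CPM at 500 Pa and 5.83, 7.08 and 6.48 CPM at 8000 Pa, at means of 4.82 ± 0.254 and 6.46 ± 0.624 CPM (SD, n = 3 each). Groups did not overlap in the higher direction for 4.02% of all tested genes, in the lower direction for 2.85% and in either direction for 6.87%, so 1 of 49 is no more than the background. The log2 fold change was 0.43 (SE 0.37, 95% interval -0.37 to 1.22). Its span, chr7:1570073-1589626, overlaps that of PSMG3, chr7:1567330-1571005 on the other strand. Whether the counting used strand is not given in the sources used here, so reads from the shared stretch cannot be told apart.

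Members kept one direction in all the numbered pairs about as often as all tested genes. Of the 49 members, 7 were higher and 8 lower at 8000 Pa in all 3 pairs, together 30.6%, against 29.8% of all tested genes. The median difference over members was -0.14 in replicate 1, -0.01 in replicate 2 and -0.01 in replicate 3.

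The members' pair differences did spread in replicate 1, and there they followed the GC content of their transcripts. Over 48 members with a GC value, from 36.8% to 60.1%, the log2 difference of the pair correlated with GC at Pearson r = -0.66 and Spearman rho = -0.68 in replicate 1. In replicate 2 r was -0.05, and in replicate 3 it was -0.11. These are correlations across genes that share 2 libraries, given as descriptions. All 11003 tested genes with a GC value gave r = -0.60, 0.05 and 0.03 in the same order, so the trend of replicate 1 ran across the tested genes as a whole. Single libraries followed GC in the other replicates too. The members' deviations from their means over all libraries gave r = -0.03, -0.42 and 0.69 at 500 Pa, for replicates 1 to 3. At 8000 Pa r was -0.75, -0.37 and 0.69, so in replicates 2 and 3 both libraries of a pair leaned the same way.

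Members at or above the median GC of 49.7% had a median difference of -0.45 in replicate 1, with 2 of 24 above zero. Those below it had a median of 0.20, with 18 of 24 above zero. PSMB10, PSME1, PSMC4, PSMD8 and PSMG3, the low end of the fold changes, have transcripts of 52.19% to 60.1% GC. Without 500 Pa replicate 3 their log2 fold changes were -0.17, -0.14, -0.21, -0.22 and -0.30 in that order. Without 8000 Pa replicate 3 they were larger, at -0.91, -0.77, -0.66, -0.73 and -0.67. PSMD1, at the high end, has a transcript of 44.2% GC. In the fit over all libraries r with GC was -0.53, and it was -0.20 once a GC offset was fitted in each library. With the offset those low members stood at -0.31, -0.54, -0.38, -0.32 and -0.24 in the same order, so PSME1 hardly moved. The part of GC content in these fold changes was not tested. The GC offset left 19 members above zero and 30 below, and called 0. With it the members at or above the median GC had a median log2 fold change of -0.13 and those below it -0.01, against -0.15 and 0.10 in the same fit without the offset.

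**Figure D4:**
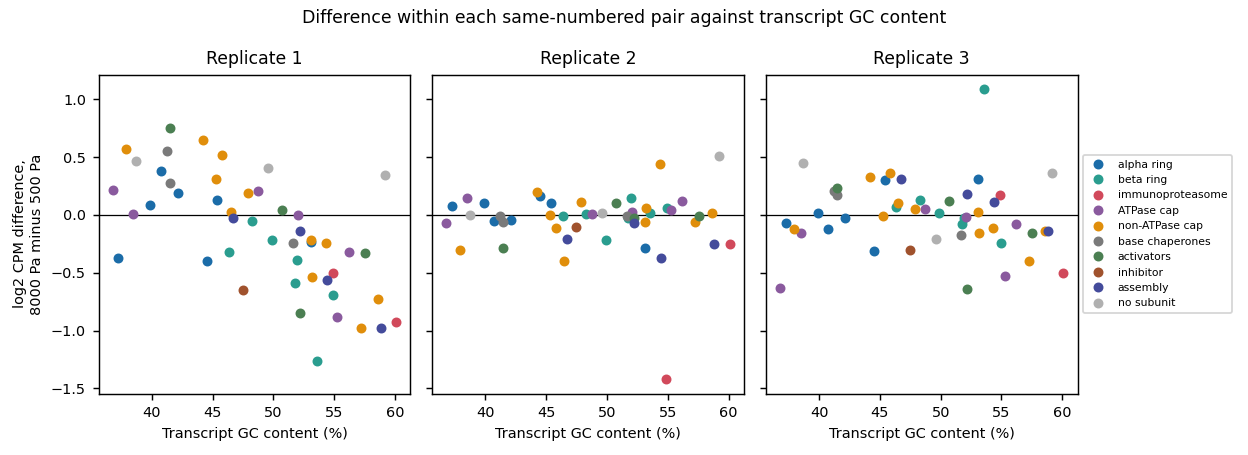
Log2 CPM difference of 8000 Pa minus 500 Pa within each same-numbered pair, against transcript GC content in percent, for 48 members coloured by role, with 1 panel per replicate number. Points descend with GC in the replicate 1 panel (r = -0.66) and show little slope in the panels of replicates 2 and 3 (r = -0.05 and -0.11).

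The other genes of the pathway were taken from a list of 50 table rows, of which 46 were tested. Their median log2 fold change was 0.07, with 26 above zero and 20 below. edgeR's quasi-likelihood test called 0 of 46, against 0.00% of all genes, and 2 had an unadjusted p under 0.05, against 2.45%. With the block 1 of 46 was called, against 0.530% of all genes. Under the block 10 of 46 had an unadjusted p under 0.05, against 10.6%. DESeq2 called 0 of the 46 without the block and 1 with it.

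Of the 11 partners of the particle without a PSM symbol, ADRM1, a ubiquitin receptor of the cap, measured 461, 308 and 557 CPM at 500 Pa and 219, 270 and 430.1 CPM at 8000 Pa. Its groups overlapped, with a log2 fold change of -0.53 (SE 0.31), which was -0.17 with the GC offset and -0.28 without 500 Pa replicate 3. UBE3C, a ubiquitin ligase bound to the proteasome, measured 10.6, 12.5 and 7.72 CPM at 500 Pa and 16.5, 13.6 and 16.7 CPM at 8000 Pa, with no overlap and a log2 fold change of 0.60 (SE 0.34, edgeR Benjamini-Hochberg adjusted p = 0.447 with the block). POMP, which matures the core, was flat at 276, 268 and 200.4 CPM at 500 Pa and 294, 273 and 225 CPM at 8000 Pa.

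Among the 9 tested regulators of proteasome genes, NFE2L1 measured 48.0, 93.2 and 47.0 CPM at 500 Pa and 55.0, 105 and 68.0 CPM at 8000 Pa. Replicate 2 was high in both groups, and the log2 fold change was 0.28 (SE 0.34). MAFG, a partner of such factors, and NFE2L3, a relative of NFE2L1, had log2 fold changes of 0.47 and 0.46 at means under 5 CPM. Among the 9 tested shuttles, which bring tagged proteins to the particle, FAF2 had a log2 fold change of 0.37.

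The 6 genes of ubiquitin and its activating enzymes had a median log2 fold change of -0.37, and none was called. The estimate for UBA6 was 0.00 (SE 0.48) with an interval of -1.05 to 1.04, too wide to show that it did not change. Its pair differences went both ways, at 0.54 in replicate 1, -0.36 in replicate 2 and -0.93 in replicate 3. The log2 fold changes of the other genes of this list ran from -0.60 to -0.17. Their median difference was -0.80 in replicate 1, -0.12 in replicate 2 and -0.38 in replicate 3, with UBA6 included. UBB, a ubiquitin precursor, measured 2739, 1681 and 3666 CPM at 500 Pa and 1343, 1670 and 2322 CPM at 8000 Pa. The replicate 2 libraries were nearly equal, and the log2 fold change was -0.60 (SE 0.32, edgeR Benjamini-Hochberg adjusted p = 0.389 with the block).

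Of the list of antigen supply genes and their regulators, 11 were tested. Their median log2 fold change was -0.02, with 5 above zero and 6 below. They were not flat: the median size of the change, regardless of sign, was 0.59, against 0.24 for all tested genes. With the block 1 of the 11 was called by edgeR, against 0.530% of all genes. Under the same fit 6 had an unadjusted p under 0.05, against 10.6%. TAP1, the peptide transporter gene beside PSMB8 and PSMB9, measured 0.503, 0.447 and 1.57 CPM at 500 Pa and 4.15, 0.634 and 2.49 CPM at 8000 Pa. From this low level its log2 fold change was 1.63 (SE 0.72, edgeR unadjusted p = 0.0418, Benjamini-Hochberg adjusted p = 1.00, or 0.308 with the block). TAPBP, also low, moved the other way, with a log2 fold change of -1.54 (SE 0.68, edgeR unadjusted p = 0.0399). Its 500 Pa replicate 1 stood at 11.5 CPM, and its other libraries lay between 1.20 and 2.57 CPM.

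Several members have copies elsewhere in the genome. GENCODE names pseudogenes after 12 of them, 13 for PSMC1, 4 for PSMA6 and 3 each for PSMA2 and PSMD10, so counts of these genes may be split or shared with copies. Levels per kilobase also rest on the transcript chosen: with the shortest coding transcript, PSMD9 would stand at 256 CPM per kilobase in place of 47.5, and PSMA4 at 213 in place of 49.1.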

How the data were processed

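Per the submitters' processing notes, the authors used HISAT2 2.1.2, HTSeq 0.11.4, limma and DESeq2 with GRCh38; the sources used here give no role, annotation, strand or multi-mapping setting. The authors deposited 1 table per library with a raw count per gene and, per the file headers, TMM-scaled log2 values. Those log2 values, filled in for 8593 genes, differed from log2 CPM computed here by at most 0.0837 over 46 members and entered no test. Groups follow the labelled stiffness.

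Stiffness was tested on the counts by edgeR 4.0.16 under R 4.3.3 (filterByExpr, minimum count 10 and total 15, 11517 genes kept; TMM; quasi-likelihood F test; Benjamini-Hochberg over all tested genes at FDR 0.05). Stiffness was the sole term, with n = 3 libraries per group. Alternatives were the replicate block, DESeq2 1.42.0, other scaling, no filter, GC offsets (loess of span 0.5 per library) and left-out libraries. The labels number the replicates alike in both groups, but the sources used here state no shared day or batch. Deviations of same-numbered libraries correlated at 0.409, 0.184 and 0.516, each over 0.1. However, 500 Pa replicate 2 correlated with 8000 Pa replicate 1 at 0.199, and whether the numbers mark true pairs was not tested. Under the block all genes took their spread from a common trend, as the prior degrees of freedom came out infinite. Steps were tested on simulated data.

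Length, GC content and gene spans come from GENCODE 29 (GRCh38), which held 53 of 54 members, and promoters from RefSeq. The members and lists were chosen with earlier results of these data known. Named with values were the catalytic subunits, the 3 highest and 3 lowest fold changes, members without overlap or with an unadjusted p under 0.05 in either fit, the most abundant member per kilobase of each role, and pathway genes past FDR 0.05 or up to 2 of smallest p per list, with NFE2L1, POMP and TAP1. Some genes that this rule names are not reported here. PSMB3, PSMC5, PSMC6, PSMD11, PSMD14, PSME2, TAPBP and UBA6 were named after their values were seen. The floor for a count of 0 is 3 counts and covers counting error only. Every pair of libraries within a group differed by more than sampling noise, and 0 columns belonged to no sample.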

Additional observations from a re-analysis of the deposited data

How the results depend on the processing

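No member was called under any alternative run (0 in each), and the lowest Benjamini-Hochberg adjusted p of any member was 0.194, with the GC offset and the replicate block together. Over all genes, the count past FDR 0.05 went from 0 to 8 without the filter, 7 with DESeq2, 61 with the replicate block, 42 with DESeq2 and the block, and 78 with the GC offset and the block; leaving out libraries gave 0 to 81, the most without replicate 2 under the block, against 38 without replicate 1 and 12 without replicate 3. Pairing by the block called 1 pathway gene, also with DESeq2 (1) and the GC offset (1), and 0 to 1 with replicates left out. The members' median log2 fold change of -0.02 became 0.15 with library size alone, which moved all genes to a median of 0.17, with 35 members above zero and 14 below; left-out libraries gave -0.07 to 0.01. The pathway median of 0.07 became 0.23 with library size alone, -0.03 with the GC offset and -0.02 with the offset and the block, and left-out libraries gave -0.03 to 0.11. With library size alone PSMB5 (0.07), PSMB7 (0.02), PSMA7 (0.06) and PSMD9 (0.02) turned positive. With libraries left out, PSMB5 ran from -0.27 to 0.12, PSMA7 from -0.21 (without replicate 3 under the block; -0.14 at the lowest without the block) to 0.04 (0.03 without replicate 1 under the block), PSMB8 from -1.15 to 0.06 (the latter without 8000 Pa replicate 2), PSMD9 from -0.25 to 0.05 and NFE2L1 from -0.03 to 0.68; without replicate 1 under the block PSMB5 was at 0.08. The cause was not tested. The block leaves 2 residual degrees of freedom, against 4 without it.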
